A study of Homo sapiens with 12 samples.

Results

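The 36 genes described here encode the semaphorins, the plexins, the SLIT proteins and the ROBO receptors, which steer growing axons and migrating cells. Members were taken by symbol from 19970 protein-coding genes on chromosomes 1 to 22 and X, as every protein-coding gene named SEMA, PLXN, SLIT or ROBO with a family number or letter. There were 20 semaphorins, 9 plexins, 3 SLIT genes and 4 ROBO genes. A peak was assigned to a gene when its summit lay within 50 kb of the gene span on hg38. A peak of a pooled list is called reproducible when it overlapped a peak by at least 1 bp in both single libraries of its group. The family was selected on its peaks and folds in these same lists, so its counts are a description and carry no test of their own.

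The study mapped PPARγ on chromatin by ChIP-seq in MCF10A-NeuT, a line of human breast epithelial cells that carries NeuT, an activated form of the ERBB2 receptor. The KQ cells stably expressed, from a retroviral vector that also encodes GFP, PPARγ with a pair of neighbouring lysines replaced by glutamine, and the design text calls this mutant acetylation deficient. The wild-type cells expressed unmutated PPARγ from the same kind of vector. Each of these groups had 2 ChIP libraries, and no label ties them to separate cultures, so that their spread may be a technical one. The labels name a PPARγ antibody for the pull-down and the design text an antibody to the Flag tag, and binding of the cells' own receptor was not told apart from that of the introduced one. The other 8 of the 12 libraries, the vector ChIP and all inputs, were not analysed here. Peak lists measure no expression, so neither the line's identity nor the expression of the guidance genes was checked.

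Semaphorins are secreted or membrane-bound proteins that bind plexins, and the secreted class 3 members usually need a neuropilin as co-receptor. Plexins act on small GTPases and so loosen adhesion and the cytoskeleton. SLIT proteins are large secreted ligands of ROBO receptors. Outside the nervous system these pairs act in blood vessel growth and in the branching of epithelia, and in the mouse mammary gland Slit2 and Robo1 help to hold the layers of the duct together. PPARγ is a nuclear receptor best known for control of fat storage. It binds DNA with RXR at a direct repeat of AGGTCA with a spacer of 1 base, called DR1.

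The strength of a peak is given as the authors' fold enrichment at the summit over the peak caller's background. The lists also give a p-value, and the fold and p together returned a whole number of stacked tags at the summit for 100% of peaks in all 6 lists, within 0.001 on the −log10 p scale. On chromosomes 1 to 22 and X the lists held 1263 and 1035 peaks in the KQ libraries and 18143 and 17859 in the wild-type libraries. The tag counts are not corrected for depth. The median background at the summit was 2.01 and 1.77 tags in the KQ libraries and 1.41 and 0.448 tags in the wild-type libraries, so KQ peaks were called over a higher background. Fold values of different lists are not on one scale. They are set side by side below and were not tested against each other.

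Guidance genes carried few KQ peaks and many wild-type PPARγ peaks. The KQ libraries had 5 and 7 peaks in the 36 windows, against 89 and 88 in the wild-type libraries. The groups did not overlap, with means of 6 ± 1.41 peaks for KQ and 88.5 ± 0.707 for wild type (SD, n = 2 each). The KQ mean was 6.78% of the wild-type mean. Over the whole lists this share was 6.38%, close to the share at the guidance genes. The pooled lists held 12 KQ and 128 wild-type peaks in these windows.

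Of the 36 genes, 1 had a reproducible KQ peak, SEMA5A, against 2.68% of all protein-coding genes. With wild type, 18 of the 36 (50%) had a reproducible peak, against 37.7% of all protein-coding genes. Counting every pooled peak, 9 of the 36 (25%) had a KQ peak against 16.4% of all genes, and 31 of the 36 (86.1%) had a wild-type peak against 67.1%. With a KQ library left out, a pooled KQ peak had to overlap the remaining library alone, so the count of members could only stay or rise. It was 3 without KQ library 1, with ROBO1 and SEMA3C added, and 3 without KQ library 2, with SEMA4D and SLIT2 added. Keeping the 354 reproducible wild-type peaks of highest q rank, as many as KQ had, left 5 members, SEMA3G, SEMA4B, SEMA5A, SEMA6B and SLIT3, against 3.25% of all protein-coding genes. Guidance genes are long, with a median span of 54.7 kb against 24.2 kb for all protein-coding genes, and a longer gene has a wider window. Among the 17 members of at least 100 kb, 1 (5.88%) had a reproducible KQ peak and 12 (70.6%) a reproducible wild-type peak, against 4.06% and 54.5% of all genes of that length. These long members had a median span of 286 kb against 175 kb for all long genes, so length is not matched within this class either. Among the 19 shorter members 0 had a reproducible KQ peak and 6 (31.6%) a reproducible wild-type peak, against 2.40% and 34.4% of all shorter genes. All 9 members with a pooled KQ peak were among the 17 long ones (52.9%), where the share over all long genes was 26.7%, and the 19 shorter ones had 0 against 14.3%. Pooled wild-type peaks stood at 14 of the 17 long and 17 of the 19 short members, against 82.5% and 64.0% of all genes of those lengths.

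Per length of window the family was close to the rest. The windows covered 11.7 Mb and held 1.02 pooled KQ and 10.9 pooled wild-type peaks per Mb, against 1.13 and 10.3 per Mb over the windows of all protein-coding genes. Reproducible peaks stood at 0.0852 per Mb for KQ and 3.49 per Mb for wild type, against 0.141 and 3.31 per Mb. The median fold of the 41 reproducible wild-type peaks of the family was 9.22, with a range of 3.63 to 30.2, against a median of 9.03 over all 8033.

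**Figure D1:**
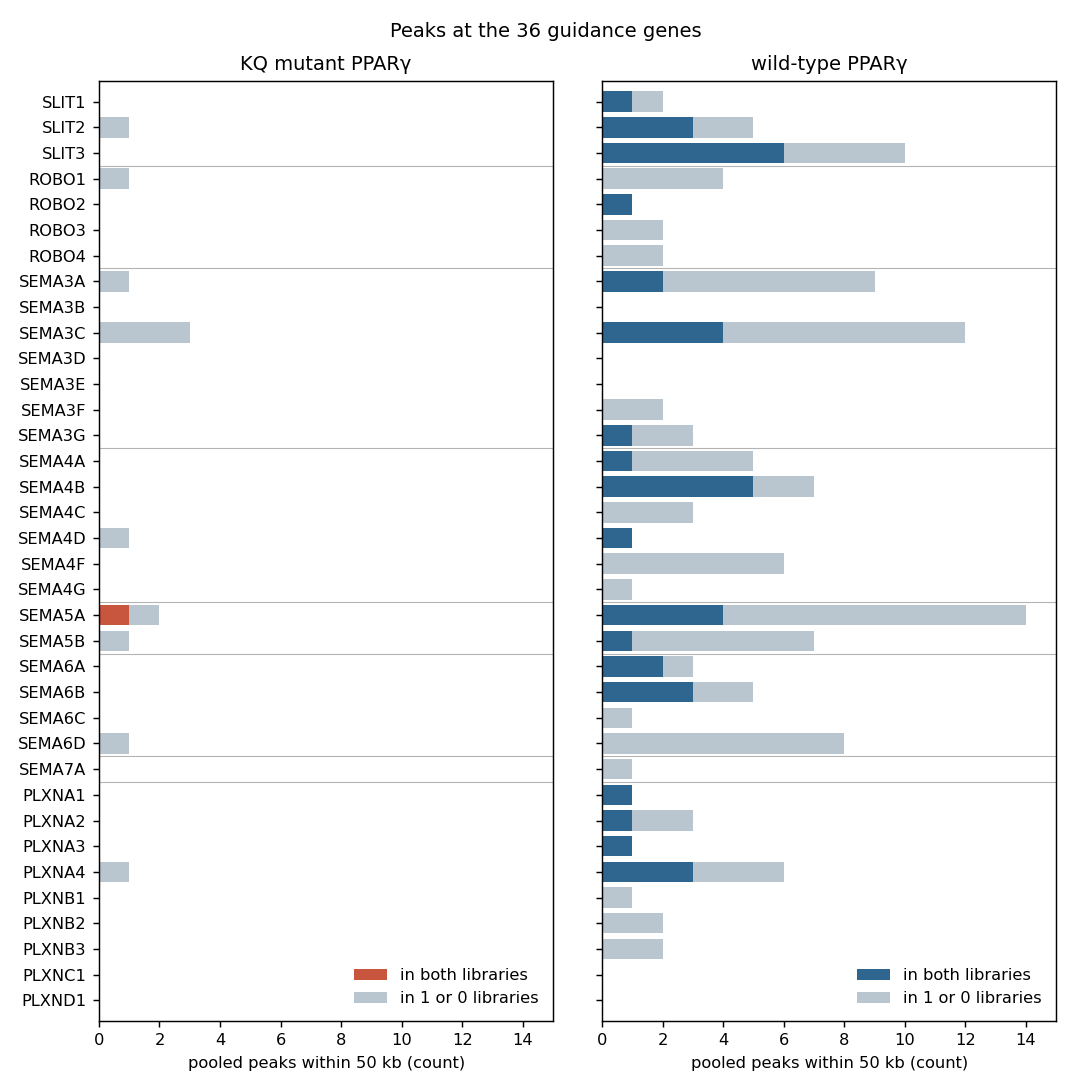
Pooled peaks within 50 kb of each of the 36 genes, as a count on the x axis, with the KQ mutant on the left and wild type on the right. The coloured part of a bar is present in both libraries of the group and the grey part in 1 or 0 of them. SEMA5A carries the single coloured KQ bar, and SEMA5A (14 peaks), SEMA3C (12) and SLIT3 (10) have the most wild-type peaks.

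Of the 3 SLIT ligand genes, SLIT2 alone had a KQ peak, and all 3 had reproducible wild-type peaks, 10 in total. SLIT3 had 0 KQ peaks and the most reproducible wild-type peaks of any member, 6 of its 10 pooled ones. The strongest SLIT3 site (chromosome 5, 169202905 to 169203325, inside the gene) had a wild-type fold of 17.8, with 14.4 in library 1 and 15.8 in library 2 and 73 tags at the pooled summit. The other 5 ran from 5.25 to 10.8, and all but the 10.8 site, 4.94 kb outside the span, lay inside the gene.

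At SLIT2, which repels growing axons through ROBO receptors, the KQ site and the strong wild-type sites were different places. The KQ peak (chromosome 4, 20506881 to 20507086) lay inside the gene with a fold of 6.77 and 21 tags, came from KQ library 1 (fold 6.81) and was not listed in KQ library 2. The wild-type peak there (20506871 to 20507131) had a fold of 3.63 and 17 tags, 3.33 in library 1 and 4.80 in library 2. It was the weakest reproducible wild-type peak of the family, while the KQ peak had the highest fold of the family's 12. The strong wild-type sites lay beyond the far end of the gene, at 18.4 kb (fold 15.6, with 10.6 in both libraries) and 25.9 kb (fold 10.9, with 8.16 in library 1 and 7.91 in library 2), and overlapped no KQ peak.

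SLIT1, a mainly neuronal SLIT, had no peak in any KQ list and 1 reproducible wild-type site, which lay in a neighbouring gene. Its fold was 19.6, with 14.3 in library 1 and 12.5 in library 2 (chromosome 10, 96978589 to 96978836). This summit lay 19.3 kb outside SLIT1 and inside LCOR, a nuclear receptor corepressor.

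Introns of SLIT2 and SLIT3 each hold a hairpin for the same microRNA, miR-218-5p, which is known to repress ROBO1. The mature sequence is shown because the SLIT2 site found in both groups lay 21.3 kb from its hairpin MIR218-1 on chromosome 4, measured from the KQ and from the wild-type summit, and capitals mark the seed, bases 2 to 8 (RefSeq, GRCh38.p14).
hsa-miR-218-5p: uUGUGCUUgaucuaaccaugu
At SLIT3 the nearest wild-type summit was reproducible and lay 26.3 kb from MIR218-2, and the nearest KQ summit lay 599.9 kb away. Neither hairpin was under a peak. Some hairpins in other members lay nearer to a wild-type summit than MIR218-1 did, namely MIR6881 in SEMA7A (2.93 kb) and MIR4636 in SEMA5A (6.32 kb). Those in SEMA4G, SEMA3B and ROBO1 lay farther away.

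Of the 4 ROBO receptor genes, 0 had a reproducible KQ peak and 1 a reproducible wild-type peak. ROBO2, with the longest span of the family at 1743 kb, had 1 pooled wild-type peak, which was reproducible and inside the gene. Its fold was 12.9, with 8.02 in library 1 and 7.86 in library 2 (chromosome 3, 77147925 to 77148144). A further ROBO2 peak, of fold 5.72, stood in the list of wild-type library 2 alone. ROBO1, the SLIT receptor of the mammary duct, had 1 pooled KQ peak (chromosome 3, 78804664 to 78804897, fold 5.06, 5.61 in KQ library 2 and not listed in KQ library 1). Wild type had 4 pooled peaks there, of which 0 were reproducible. The wild-type peak under the KQ peak had a fold of 8.06 and was listed in library 1 (8.30) and not in library 2. ROBO3, which acts in axons that cross the midline, and ROBO4, the endothelial member, lie side by side and shared their 2 wild-type peaks, of which the higher had a fold of 5.04.

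Among the 7 secreted class 3 semaphorins, SEMA3C, SEMA3A and SEMA3G had reproducible wild-type peaks. SEMA3C, which signals through neuropilins and plexins, had 3 pooled KQ peaks, the most of any member, and 12 pooled wild-type peaks, of which 4 were reproducible. All 3 KQ peaks came from KQ library 2 and KQ library 1 had 0 in this window. A pair of them lay just upstream of the gene. The first (chromosome 7, 80941470 to 80941693, 19.2 kb from the start site) had a KQ fold of 6.44, with 6.85 in library 2. It lay on the strongest wild-type site of the gene, whose fold was 13.2, with 16.1 in library 1 and 10.9 in library 2. The second KQ peak (80942330 to 80942764) had a fold of 5.94 and 25 tags over a wild-type peak of fold 5.04 and 14 tags. The third lay 19.7 kb beyond the far end of the gene, with a KQ fold of 3.57 and a wild-type fold of 8.53.

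SEMA3G, another secreted ligand, had no peak in any KQ list, and in wild type the second highest site of the family at the very end of its span. The peak (chromosome 3, 52432812 to 52433066) had a wild-type fold of 22, with 16.1 in library 1 and 15.9 in library 2, and 47 tags against a background of 1.19. The libraries were close to each other here. Its summit lay 0.081 kb past the 3′ end of the gene, and 99.7% of the pooled wild-type list had a lower fold.

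SEMA3A, a repellent of axons that binds neuropilin-1, had 1 pooled KQ peak of fold 4.46 that was listed in neither KQ library, and 9 pooled wild-type peaks, with reproducible folds of 12.5 and 6.80. SEMA3F had 2 pooled wild-type peaks and 0 reproducible ones. SEMA3B, SEMA3D and SEMA3E had 0 pooled peaks in either group, although SEMA3B had 1 peak in wild-type library 2.

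The 6 class 4 semaphorins are membrane proteins that mostly bind plexin-B receptors. SEMA4B had 0 KQ peaks and 7 pooled wild-type peaks, of which 5 were reproducible. The 2 reproducible peaks inside the gene had folds of 8.71 and 5.57. The other 3, with folds of 18.4, 14.4 and 7.02, lay 32.4 to 35.2 kb outside it and inside CIB1 and TTLL13. The highest of these (chromosome 15, 90264630 to 90264959) had 14.1 in library 1 and 14.4 in library 2. SEMA4D, a ligand of plexin-B1, had 1 pooled peak in each group at the same place inside the gene. KQ had a fold of 3.43 there (chromosome 9, 89388187 to 89388488), 4.66 in library 1 and no listing in library 2. Wild type had 6.01, with 5.10 in library 1 and 4.75 in library 2. The KQ summit held 33 tags against a background of 8.92, and the wild-type summit 24 tags against 3.16. SEMA4A had 1 reproducible wild-type peak (5.22), which lay inside the lamin gene LMNA. SEMA4C, SEMA4F and SEMA4G had no KQ peak in any list and 3, 6 and 1 pooled wild-type peaks, none reproducible.

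SEMA5A held the 1 reproducible KQ site of the family, and at the same place its strongest wild-type site. Class 5 semaphorins are membrane proteins with thrombospondin repeats beside the semaphorin domain. The KQ peak (chromosome 5, 9376760 to 9377004) had a pooled fold of 5.47, with 3.93 in library 1 and 7.57 in library 2. The wild-type peak (9376793 to 9377089) had a pooled fold of 30.2, with 28.4 in library 1 and 14.4 in library 2. The family was selected on these folds and the lists are not on one scale, so the order of the groups here was not tested. The wild-type libraries were themselves far apart. The KQ summit held 42 tags against a background of 6.86, and the wild-type summit 77 tags against 1.58, so the background differed between the groups as well as the tags. The KQ peak ranked 930 by fold among 2846 pooled KQ peaks, and the wild-type peak 6 among 25164 pooled wild-type peaks. The summit lay inside the gene, 169.2 kb from its start site in the KQ list and 169.1 kb in the wild-type list.

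The rest of SEMA5A, a gene of 511 kb, held the 1 KQ peak of the family with no partner in the pooled wild-type list (9422090 to 9422286, fold 5.54, 17 tags), which was listed in KQ library 1 (6.51) and not in library 2. A further KQ peak, of fold 5.38, stood in the list of library 2 alone, at 9407891 to 9408055. In wild type the gene had 14 pooled peaks, more than any other member, and the other 3 reproducible ones had folds of 10.9, 8.30 and 7.12. SEMA5B had 1 pooled KQ peak, 8.24 kb upstream, with a fold of 3.96, which was in neither KQ library. It had 7 pooled wild-type peaks, and the strongest, the 1 reproducible among them, lay inside the gene at another place (chromosome 3, 122941699 to 122941971). Its fold was 16.3, with 13.4 in library 1 and 10.4 in library 2.

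**Figure D2:**
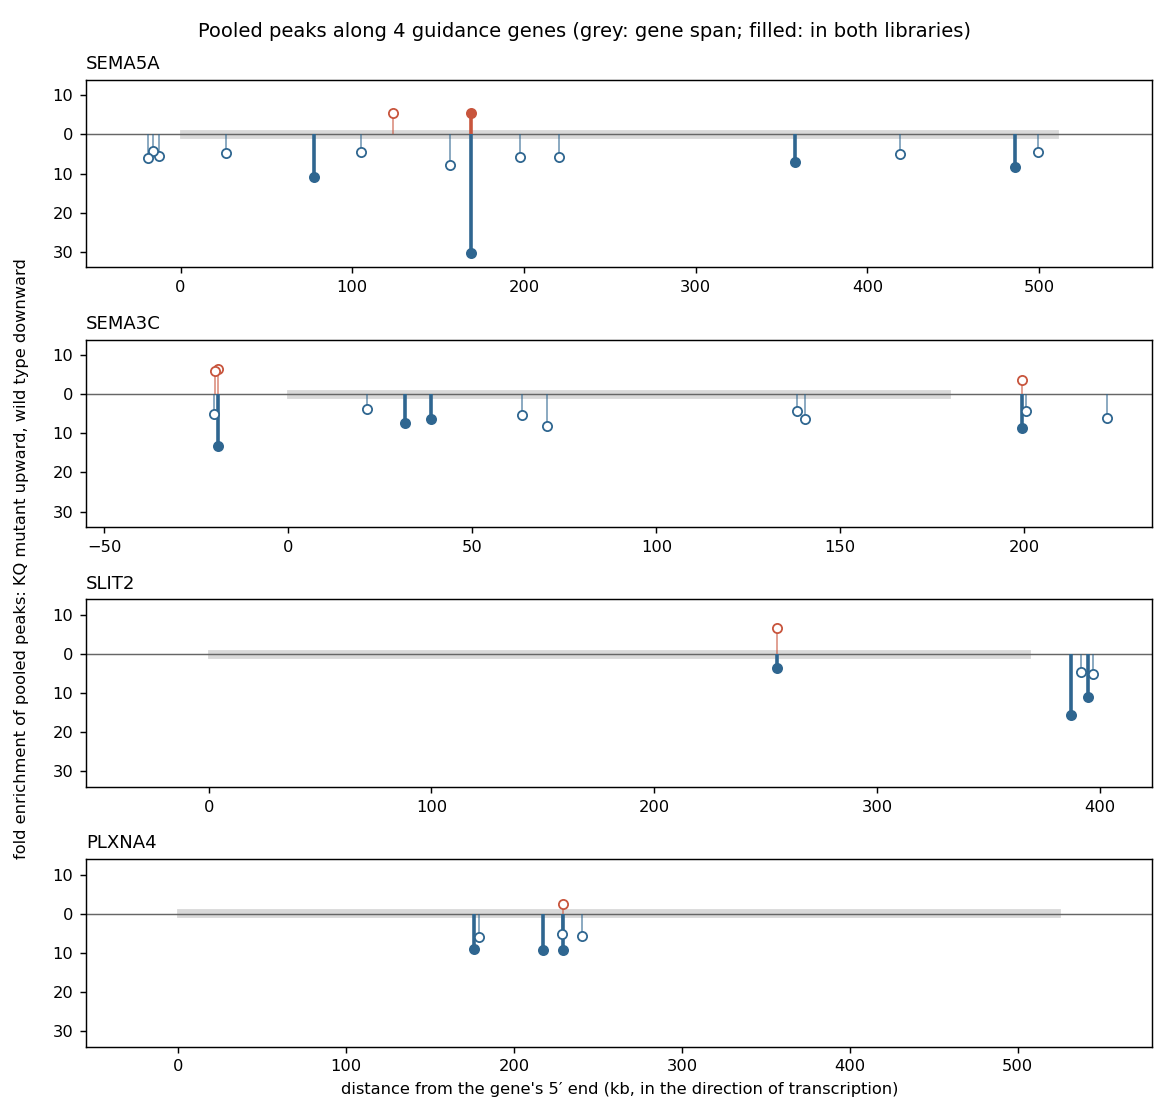
Pooled peaks along SEMA5A, SEMA3C, SLIT2 and PLXNA4, with distance in kb from the 5′ end of the gene span on the x axis and fold enrichment on the y axis, KQ upward and wild type downward. Filled points are present in both libraries of the group, and the grey bar is the gene. The filled KQ point at SEMA5A (5.47) stands over the tallest wild-type point (30.2), and at SLIT2 the KQ peak (6.77) stands over a low wild-type point (3.63).

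The 4 class 6 semaphorins, membrane ligands of plexin-A receptors, differed in where their peaks lay. SEMA6B had 3 reproducible wild-type peaks, with folds of 14.9, 13.3 and 9.54, all between 20.9 and 37.5 kb outside SEMA6B at the perilipin genes PLIN4 and PLIN5, which coat lipid droplets. Of these, the 14.9 site (chromosome 19, 4521613 to 4521948) had 13.5 in library 1 and 14 in library 2. SEMA6A had 2, with folds of 10.4 and 6.53. SEMA6D had 1 KQ peak, of fold 4.29 and in neither KQ library, and 8 pooled wild-type peaks over a span of 590 kb, none reproducible. Its highest wild-type peak, of fold 11.5, was listed in library 2 (10.7) and not in library 1, and the next, of fold 10.1, in library 1 (6.18) and not in library 2. SEMA6C and SEMA7A, the lipid-anchored semaphorin that binds β1 integrin, had no KQ peak and 1 pooled wild-type peak each, with folds of 4.83 and 4.12.

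Of the 9 plexins, the 4 class A genes had reproducible wild-type peaks and the other 5 had none. PLXNA1 to PLXNA4 encode the plexins that pair with neuropilins. PLXNA3 had the highest fold, 13.2, with 13.2 in library 1 and 11.9 in library 2, at a site 28.2 kb outside the gene and nearest to FAM3A (chromosome X, 154505851 to 154506090). PLXNA4 had 3 reproducible sites inside the gene, with folds of 9.30, 9.22 and 9.09. PLXNA1 had 1, of fold 9.19, and PLXNA2 had 1, of fold 9.0. The KQ peak in PLXNA4 (chromosome 7, 132419667 to 132419832) lay on the 9.30 site, with a KQ fold of 2.65 and a −log10 q of 1.34, near the lowest value of the list, 1.32. This KQ peak was listed in neither KQ library. Both the PLXNA1 and the PLXNA3 site also overlapped a peak of 1 KQ library that was not in the pooled KQ list, with folds of 5.52 in library 2 and 5.59 in library 1. PLXNB1, PLXNB2 and PLXNB3 had 1, 2 and 2 pooled wild-type peaks with folds of up to 7.12. PLXNC1 had no peak in any list, and PLXND1, the receptor of SEMA3E, had 1 in wild-type library 2 alone.

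**Figure D3:**
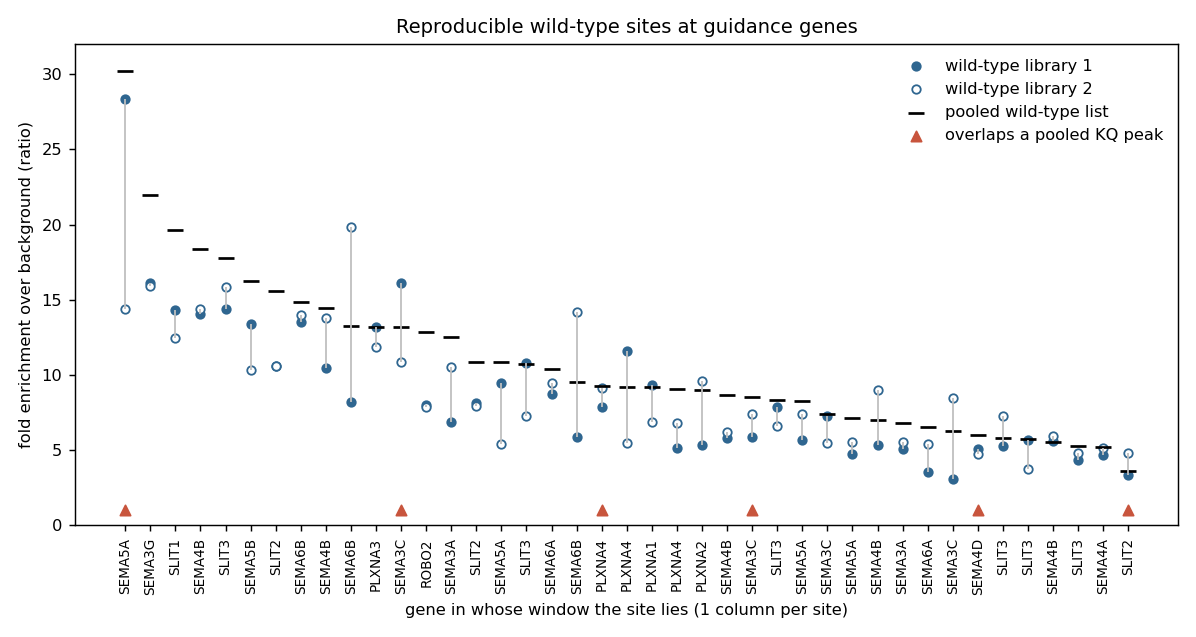
Fold enrichment on the y axis for the 41 reproducible wild-type sites, 1 column per site in order of pooled fold, with library 1 filled, library 2 open and the pooled list as a dash. Triangles mark the 6 sites that overlap a pooled KQ peak. They include the highest site (SEMA5A, 30.2) and the lowest (SLIT2, 3.63), and SEMA5A and the PLIN4 site of SEMA6B show the widest gaps between libraries.

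The wild-type libraries ranked the 41 sites in a similar order (Pearson correlation 0.607 and Spearman correlation 0.678 across sites, a description, since sites share libraries). Library 1 had the higher fold at 16 of the 41. Its median fold was 7.84 on a median of 22 tags, and that of library 2 was 7.86 on 14 tags, so the folds of library 2 rest on fewer tags. Of the 12 pooled KQ peaks, 1 (8.33%) was in both KQ libraries, 7 in 1 and 4 in neither. Of the 128 pooled wild-type peaks, 41 (32%) were in both, 55 in 1 and 32 in neither. Over the whole pooled lists, 12.4% of KQ and 31.9% of wild-type peaks were in both libraries.

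Almost every KQ site at guidance genes was also a wild-type site. Of the 12 pooled KQ peaks, 11 (91.7%, exact 95% interval 61.5 to 99.8) lay on a pooled wild-type peak, against 80.4% of the whole KQ list. In the other direction 6 of the 41 reproducible wild-type peaks (14.6%, exact 95% interval 5.57 to 29.2) overlapped a pooled KQ peak, against 20.1% of all reproducible wild-type peaks. The intervals cover counting error only. They take peaks as independent, although 3 of the 12 KQ peaks lay at SEMA3C and all came from KQ library 2. The 6 shared wild-type sites of the family had a median fold of 8.92, with a range of 3.63 to 30.2, and the 35 unshared ones 9.22. Over all reproducible wild-type peaks these medians were 10.8 and 8.74. With so few shared sites the medians were not compared further.

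At the 11 shared sites the fold was higher in the wild-type list at 9, with SLIT2 and the second upstream site of SEMA3C as the exceptions. The stacked tags gave another picture. KQ had more tags than wild type at SEMA4D, SLIT2, SEMA5B, SEMA3A and the second SEMA3C site, equal tags at SEMA6D (18 in each), and fewer at SEMA5A, ROBO1, PLXNA4 and the other SEMA3C sites. At PLXNA4, for example, KQ had 18 tags over a background of 6.18, and wild type 23 over 1.58. The background was higher for KQ at all of these sites but SLIT2, where it was 2.25 tags for KQ and 3.95 tags for wild type, and its part in the folds was not tested.

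**Figure D4:**
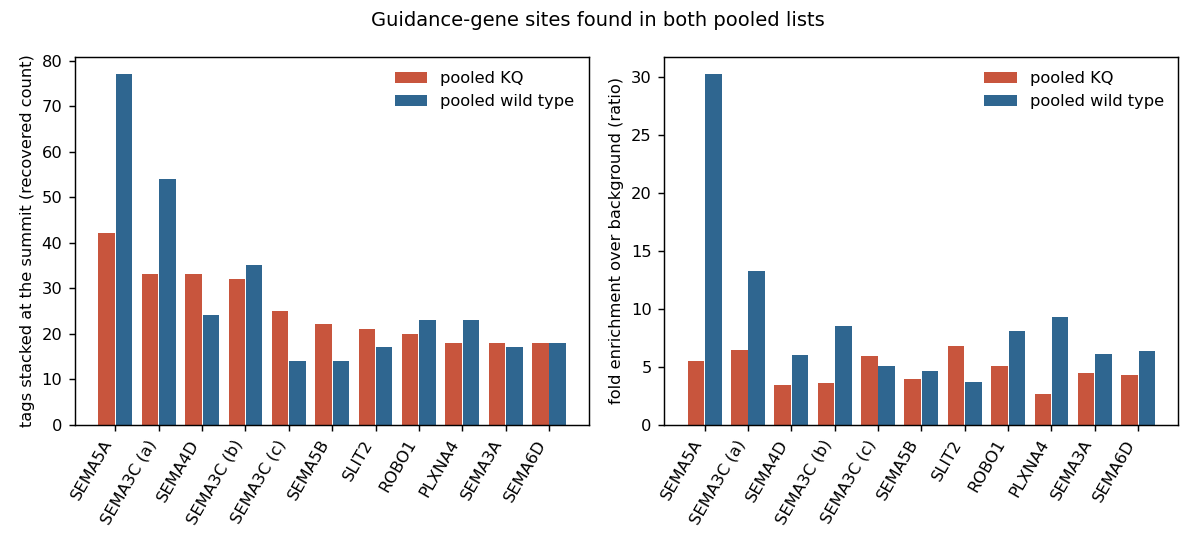
Tags stacked at the summit (left) and fold enrichment (right) at the 11 guidance-gene sites present in both pooled lists, with KQ bars left of wild-type bars and letters marking the 3 SEMA3C sites. Tag counts are uncorrected for depth and folds come from separate lists. SEMA5A has the tallest bars for wild type in both panels (77 tags, fold 30.2), and several other sites have as many tags with KQ as with wild type.

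Most reproducible wild-type sites of the family lay inside the guidance genes. Of the 41, 25 (61.0%) had their summit inside the member, 6 (14.6%) inside another protein-coding gene and 10 in none. Over all 8033 reproducible wild-type peaks, 49.9% lay inside any protein-coding gene, whereas the 61.0% counts the member itself alone. The windows here are also built round genes, so these shares are not like for like. None of the 12 KQ peaks, and 6 of the 128 wild-type peaks, overlapped a promoter in the RefSeq table, which gives 250 bases before to 50 after a start site. Of these 6, 2 were at promoters of members and 4 at promoters of neighbours, and 1 of the 6 was reproducible. The share of peaks at promoters over the whole pooled lists was not counted. The promoter counts are therefore not read as a trait of these genes or as a difference between groups.

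These promoters were searched for DR1, spelled AGGTCANAGGTCA with N for any base, on both strands, allowing up to 3 mismatches in its 12 fixed letters. Of 35116 promoters in the table, 8 (0.0228%) held an exact match and 20.9% a match within 3 mismatches. Among the 58 promoters listed for 33 of the 36 members, 0 held an exact match, 1 matched within 2 mismatches, where 2.97% of all promoters did, and 9 within 3. A match describes the letters and does not show a bound site. The promoters of TUBGCP6, in the PLXNB2 window, and LMNA, in the SEMA4A window, also lay under wild-type peaks and are not printed. Neither held a match within 3 mismatches. The 4 sequences below come from other promoters under peaks (RefSeq, GRCh38.p14). Each runs 5′ to 3′ on the strand of its gene, with capitals for the best match within 3 mismatches.
TMA7: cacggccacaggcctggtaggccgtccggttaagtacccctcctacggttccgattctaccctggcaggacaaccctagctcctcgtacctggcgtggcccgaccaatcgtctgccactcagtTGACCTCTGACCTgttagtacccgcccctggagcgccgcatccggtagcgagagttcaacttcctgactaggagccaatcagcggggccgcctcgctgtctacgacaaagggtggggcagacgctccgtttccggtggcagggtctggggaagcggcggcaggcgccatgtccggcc
PLIN4: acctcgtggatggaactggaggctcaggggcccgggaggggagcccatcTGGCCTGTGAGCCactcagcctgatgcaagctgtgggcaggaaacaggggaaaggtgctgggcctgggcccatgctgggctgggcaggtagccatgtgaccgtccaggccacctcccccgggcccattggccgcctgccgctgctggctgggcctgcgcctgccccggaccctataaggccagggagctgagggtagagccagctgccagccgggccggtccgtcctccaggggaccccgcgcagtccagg
SEMA4B: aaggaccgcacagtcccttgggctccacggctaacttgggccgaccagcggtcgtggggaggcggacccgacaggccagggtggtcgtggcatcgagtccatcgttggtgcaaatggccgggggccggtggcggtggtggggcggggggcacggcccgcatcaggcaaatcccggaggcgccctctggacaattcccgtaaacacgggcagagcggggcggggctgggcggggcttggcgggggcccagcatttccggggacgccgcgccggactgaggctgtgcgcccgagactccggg
PLXNB3: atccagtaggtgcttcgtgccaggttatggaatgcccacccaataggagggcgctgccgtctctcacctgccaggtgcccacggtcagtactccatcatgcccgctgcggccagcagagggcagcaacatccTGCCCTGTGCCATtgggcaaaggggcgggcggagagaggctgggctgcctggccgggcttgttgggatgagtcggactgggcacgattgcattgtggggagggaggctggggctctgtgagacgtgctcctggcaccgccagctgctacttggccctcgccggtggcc
TMA7 (chr3:48440007-48440306, plus strand) and CCDC51 share this promoter in the window of PLXNB1, and its exact match counts for both of them among the 8. The match begins at base 124 of the promoter, which is the first base of the wild-type peak (48440130 to 48440267), and lies 49 bp from the summit. That peak had a fold of 4.49 on 15 tags and was in 1 wild-type library. PLIN4 (chr19:4518437-4518736, minus strand) lies in the SEMA6B window under the reproducible wild-type peak of fold 13.3, with 8.22 in library 1, 19.8 in library 2 and 91 tags, the most of the family. Its best match has 3 mismatches and lies 12 bp from the summit. SEMA4B (chr15:90184670-90184969, plus strand) had a peak of fold 4.01 whose summit was 16 bp from the start site, in 1 library, and no match within 3 mismatches. PLXNB3 (chrX:153763999-153764298, plus strand) had a peak of fold 5.04 with its summit 62 bp from the start site, in 1 library, and a match with 3 mismatches 44 bp from the summit.

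Partners of these families were counted in the same way, with no test between lists. Of 10 semaphorin co-receptors and partners, 0 had a reproducible KQ peak and 3 a reproducible wild-type peak. These were NRP1, the neuropilin that binds SEMA3A (highest fold 12.4), MET, which associates with plexin-B1 (11.5), and CD72, a receptor of SEMA4D on B cells (9.0). Of 27 genes of plexin signalling, 1 had a reproducible KQ peak and 15 a reproducible wild-type peak. The KQ peak was at DPYSL3, a collapsin response mediator, with folds of 4.24 for KQ and 15.4 for wild type at the same site 42.6 kb outside the gene. MICAL2, an actin oxidase, had a wild-type fold of 17.1 inside the gene. Of 19 genes of SLIT and ROBO signalling, 2 had a reproducible KQ peak and 9 a reproducible wild-type peak. At GPC1, a glypican that binds SLIT proteins, KQ had a fold of 7.61 and wild type 18.6 at the same site 1.47 kb outside the gene. SRGAP1, a GTPase-activating protein that binds ROBO1, had a KQ fold of 9.68 inside the gene, and its highest wild-type site, of fold 11.4, lay elsewhere in the gene. All 3 of these KQ peaks overlapped a pooled wild-type peak, as did 96.0% of all 354 reproducible KQ peaks. The background for reproducible peaks is 2.68% of genes for KQ and 37.7% for wild type, as above.

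The edge of the 50 kb window touched some members. The outermost peak inside it was a wild-type peak of fold 4.83 at 48.8 kb from SEMA6C. The nearest peak outside was a reproducible wild-type peak of fold 7.43 at 51.1 kb from SEMA5B, followed by a wild-type peak of fold 3.84 at 51.6 kb from SEMA6A that was not reproducible. SEMA5B also had a site at 51.8 kb that was reproducible in both groups, with folds of 9.48 for KQ and 9.49 for wild type.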

How the data were processed

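ChIP-seq peak lists of 4 libraries (2 per group) and of the pooled libraries of each group were used, 6 lists in all, in hg38 coordinates. The tools named are Bowtie2 (version 2) and MACS2, a read mapper and a peak caller, besides HOMER, bedtools and deepTools, per the submitters' processing notes. Caller settings and any use of input were not given in the sources used here. Each deposited list gives a fold enrichment (a ratio), −log10 of the p-value and of the q-value, and a summit position. Fold, p-value and q-value are the authors' values. Python 3.11.15, pandas 2.3.3 and scipy 1.17.1 were used here for overlaps and windows, and the code was tested on simulated data.

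Gene spans came from RefSeq GRCh38.p14. Whole tags at the summit were recovered by solving fold and p together, taking fold as pileup plus 1 over background plus 1 and p as a Poisson tail. Library depth itself is not in the lists. Members and lists were chosen with earlier results of these data known. Genes given in full were those with a reproducible KQ peak and the 10 with the highest reproducible wild-type fold. Alternatives covered the window, the threshold, the overlap, each library, list length and nearest-gene assignment. No genome sequence was used here, so sequences under most peaks were not read.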

Additional observations from a re-analysis of the deposited data

How the results depend on the processing

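The number of members with a reproducible KQ peak, 1, was 3 with a window of 100 kb, where PLXND1 and SEMA5B joined SEMA5A, and 3 with either KQ library left out. ROBO1 and SEMA3C joined without library 1, and SEMA4D and SLIT2 without library 2. Leaving a library out eases the rule, since a pooled peak then has to overlap the remaining library alone, so such counts could only stay or rise. The KQ number stayed 1 in a window of 5 kb, at −log10 q of at least 5, with 50% overlap and with the nearest gene only. The number with a reproducible wild-type peak, 18, fell to 5 when that list was shortened by q to 354 reproducible peaks, the number KQ had, against 3.25% of all protein-coding genes. It ranged from 14 (5 kb, and nearest gene only) to 24 (100 kb). With library 2 or library 1 left out it was 25 and 26, under the same easier rule. The ratio of KQ to wild-type peaks stayed between 0.0565 and 0.0938 over all alternatives. The replicate block, which swaps labels only within a replicate number, left the ratio at 0.0678. No p is given for the ratio, with or without the block, since the members were selected on these counts and 2 libraries a group fix its lowest value. The numbers do not pair the samples by any label. Deviations of same-numbered libraries had r = -0.00573 across 19970 genes. Only 16.4% of these genes had a pooled KQ peak, so this value cannot decide whether the numbers pair cultures. The share of reproducible wild-type sites with a KQ peak ranged from 9.84% to 18.2%. With few tags per summit, an unlisted KQ site is not shown to be unbound.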

Other observations

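Other guidance families had peaks as well. Of 13 netrins and netrin receptors, 1 had a reproducible KQ peak and 4 a reproducible wild-type peak. NTN4, a netrin that binds laminins, had a KQ fold of 6.95, with 5.32 and 6.49 in the libraries, and a wild-type fold of 9.69, with 9.29 and 8.11, at the same site 8.42 kb outside the gene. NTNG2, at 14.5, led the list in wild type. Of 8 ephrin genes, 0 had a reproducible KQ peak and 3 a reproducible wild-type peak, led by EFNA5 (14.1, inside the gene), while EFNA1 and EFNA3 shared a site of fold 11.8. Of 14 EPH receptor genes, 1 had a reproducible KQ peak and 8 a reproducible wild-type peak. EPHA8 had a KQ fold of 6.93, with 9.78 and 3.92 in the libraries, and a wild-type fold of 17.8, with 18.9 and 13.2, at the same site 43.0 kb outside the gene. EPHB6 (18.3, 26.7 kb outside the gene) and EPHA4 (14.8, inside the gene) had the other high wild-type folds. These counts stand beside 2.68% of all protein-coding genes for KQ and 37.7% for wild type, and were not tested.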
